A study of Mus musculus with 12 samples.

Results

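The comparison described here set WT T cells given TNF together with TGF-β against WT T cells given no cytokine, the Th0 condition, with 3 libraries in each group. Its members were the genes with at least 1 FPKM (fragments per kilobase of transcript relative to sequencing depth, a level per length) in at least 3 of these 6 libraries. The rule kept 12146 of the 47643 genes in the table, and 25238 genes were listed at 0 in all 6 libraries. It was met by 389 genes only through the TNF+TGF-β libraries and by 147 only through the Th0 libraries, and such genes had to differ between the groups. In all, 748 genes met the rule in exactly 3 libraries and 469 missed it with exactly 2.

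Cells of both groups came from C57BL/6 mice with no engineered allele named, and the labels call them naive CD4+ T cells of the spleen. All were plated at 500000 cells per well and stimulated for 3 days through CD3 and CD28 by antibodies at 2 μg/ml each. Th0 cells received nothing further, while the other group received 20 ng/ml TNF and 2 ng/ml TGF-β and is called treated below. WT cells with 20 ng/ml IL-6 and 2 ng/ml TGF-β, and Tnfr2-/- cells (without TNF receptor 2) with TNF+TGF-β, shared the estimate of the spread. The labels call the libraries of a group triplicates without saying whether these came from separate mice or cultures, so the p-values measure only the spread between the libraries, which may be technical. TNF and TGF-β were added together, and no group with either cytokine alone was analysed here, so their effects cannot be told apart.

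TNF signals through a pair of receptors, TNFR1 and TNFR2, and its best known route in T cells leads through TRAF and cIAP adaptors to NF-kB, which turns on its own inhibitors. TGF-β signals through a pair of receptor kinases that phosphorylate SMAD proteins, which also turn on their own antagonists. In CD4 T cells TGF-β is known for inducing Foxp3 and the integrin chain CD103 and for holding back T-bet and interferon-γ. Interferons act through JAK kinases and STAT proteins on antiviral genes, on large GTPases that attack intracellular pathogens and on the genes that present peptides on MHC class I.

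Differences are given between group means of log2(FPKM + 1), as TNF+TGF-β minus Th0, and this scale understates the change of genes near or below 1 FPKM. Genes were tested with limma and called at an adjusted p under 0.05. With TNF+TGF-β, 2413 genes rose (19.9% of those tested) and 1704 fell (14%), together 33.9%. At least a 2-fold change on this scale was reached by 1067 of the genes that rose (8.78% of those tested) and by 602 of those that fell (4.96%). The 3 libraries of one group lay wholly above or below those of the other for 57.1% of the genes, with 32.9% wholly higher and 24.2% wholly lower. The median log2 difference over all tested genes was 0.07. Rises made up 58.6% of the calls, 72.4% when the libraries were brought to equal FPKM sums and 49.5% with median-ratio scaling, so the balance of rises and falls rests on the scaling.

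Estimated depth of the 6 libraries was 19400000 to 22800000 fragments, and their FPKM sums ran from 689045 to 823087. Across genes, which are not independent replicates, Spearman correlations were 0.974 to 0.985 within the groups and 0.888 to 0.915 between them. In bulk RNA, fewer cells of a type and less RNA per cell cannot be told apart.

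T cell RNA was abundant in these libraries, but the coreceptors did not match the CD4 label, and B cell markers were read too. Trac, which encodes the constant part of the T cell receptor α chain, read 1283, 1242 and 1350.4 FPKM without cytokine and 849, 893 and 877 with both cytokines. Cd4 read 18.9, 62.4 and 25.5 FPKM in the Th0 libraries and 42.3, 79.6 and 52.7 in the treated ones, with overlapping groups (adjusted p = 0.256). In all 6 libraries both Cd8a and Cd8b1, the CD8 coreceptor chains, were above Cd4. Cd8b1 rose (log2 difference 0.93, adjusted p = 0.0187), but its call was lost without Th0 replicate 1 (adjusted p = 0.0798), Th0 replicate 3 (0.0533), TNF+TGF-β replicate 2 (0.052) or TNF+TGF-β replicate 3 (0.051). Cd8a read 48.0, 73.8 and 59.7 FPKM in Th0 and 184, 148 and 189 in the treated libraries, so every treated library was above every Th0 library (log2 difference 1.52 ± 0.35 (SE), adjusted p = 0.00605). Because these coreceptors go against the label, the cells are called T cells below.

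Markers of other cell types also differed between the groups. The 8 B cell markers summed to 809–1277 FPKM in Th0 and 269–346 in the treated libraries, and all 8 were called lower. The IL-6+TGF-β libraries summed to 437–972 FPKM, overlapping the Th0 range. The 2 CD8 chains summed to 115–180.1 FPKM in Th0 and 307–358 in the treated libraries. The 6 myeloid markers summed to 101–154 FPKM in Th0 and 72.4–144.6 in the treated libraries, overlapping ranges in which 1 marker, Mpeg1, was called lower. The 3 dendritic cell markers summed to 2.4–2.97 FPKM in Th0 and 6.79–11.12 in the treated libraries, where Itgax and Zbtb46 were called higher, Itgax meeting the inclusion rule only through the treated libraries. The NK cell markers Ncr1 and Klrb1c, the dendritic cell marker Flt3 and the erythroid marker Alas2 were under 1 FPKM in all 6 libraries, Alas2 at 0. The part of these shifts in the results below was not tested.

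**Figure D1:**
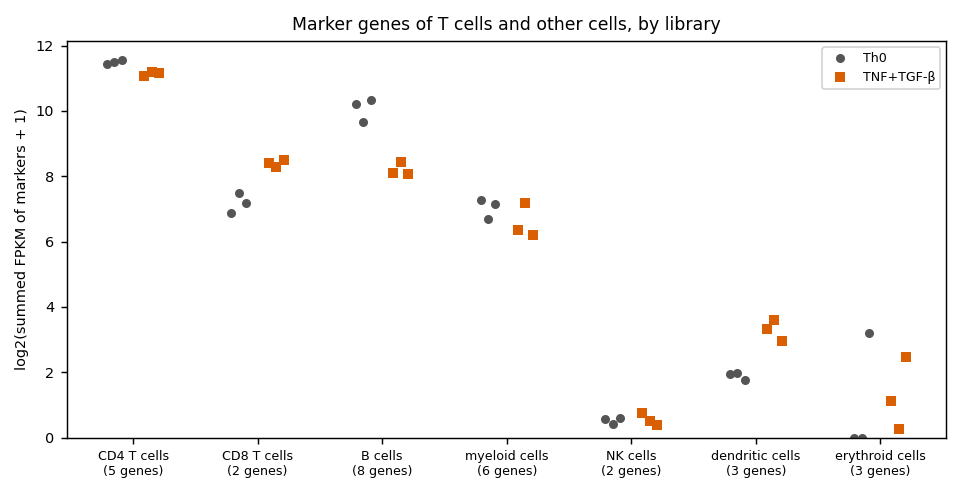
Summed FPKM of the marker genes of each cell type on a log2 axis (value + 1), with 1 point per library, circles for Th0 and squares for TNF+TGF-β. The B cell sums of the treated libraries (269–346) all lie below those of Th0 (809–1277), and the CD8 sums lie above (307–358 against 115–180.1).

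Of all the gene lists, the interferon-induced GTPases had the largest share of falls. Every tested member fell, 17 of 17, where 14% of all tested genes were lower. Their median log2 difference was −1.93, against 0.07 over all genes, and in every alternative setting at least 16 of them fell. The list holds guanylate-binding proteins (Gbp), which coat and break open vacuoles of pathogens, and immunity-related GTPases (Irgm, Igtp, Iigp, Tgtp), which act on the same membranes. Its members Gm4951 and Gbp10 met the inclusion rule only through Th0.

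Gbp2 (ENSMUSG00000028270.12, chromosome 3, 142620602 to 142638008) read 362, 468 and 408 FPKM without cytokine and 48.9, 45.9 and 34.3 with both cytokines. The highest treated library was far below the lowest Th0 library, and the log2 difference was −3.24 ± 0.17 (SE; adjusted p = 7.11e-08). Irgm1 (ENSMUSG00000046879.6, chromosome 11, 48861968 to 48871683), which controls the other immunity-related GTPases, read 301, 295 and 355 FPKM in the Th0 libraries and 65.3, 62.5 and 64.9 in the treated ones. Its groups were equally well apart, with little spread among the treated libraries (log2 difference −2.28 ± 0.13, adjusted p = 1.56e-07). Gbp10 read 33.8, 27.9 and 34.4 FPKM in Th0 and 0.54, 0.27 and 0.29 in the treated libraries (log2 difference −4.59), so it was near 0 in all treated libraries. Gbp6 read 78.7, 79.3 and 86.8 FPKM without cytokine and 6.56, 6.43 and 5.33 with both cytokines (log2 difference −3.54). Ifi47 had the smallest fall of the list, from 424, 365 and 389.8 to 242, 219 and 219.7 FPKM (log2 difference −0.79, adjusted p = 0.00132), and its groups still did not overlap. Gbp, Tgtp and Irgm genes are close copies of each other, so the division of reads among them is uncertain, and the gene model of Igtp overlaps that of Irgm2.

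The antiviral list fell in most members, 20 of 26 tested (76.9%, against 14% of all), with none higher (median log2 difference −1.13). Cmpk2, Oas3 and Ifit1, among the falls, met the inclusion rule only through Th0, and Ifit1 lost its call without Th0 replicate 3 (adjusted p = 0.0563). When single libraries were left out, 16 to 19 genes were called lower, and over all settings 12 to 20. Isg15, a ubiquitin-like protein attached to other proteins during interferon responses (ENSMUSG00000035692.6, chromosome 4, 156199424 to 156200818), read 18.9, 17.9 and 16.7 FPKM in the Th0 libraries and 2.20, 2.72 and 2.03 in the treated ones. The groups were far apart and even within themselves (log2 difference −2.51 ± 0.20, adjusted p = 2.36e-06). Usp18, which removes Isg15 and damps interferon receptor signalling, read 9.86, 8.50 and 12.3 FPKM in Th0 and 2.86, 2.03 and 1.95 in the treated libraries (log2 difference −1.77). Oasl2, of the oligoadenylate synthetase family, read 8.76, 4.96 and 12.8 and 1.65, 2.10 and 1.39 FPKM (log2 difference −1.79), with Th0 replicate 2 the lowest of the Th0 libraries. Among the 6 genes without a call were Mx1, Mx2, Irf7 and Eif2ak2. Irf7, the factor that amplifies type I interferon, read 19.96, 10.6 and 18.4 FPKM without cytokine and 11.1, 11.8 and 6.30 with both cytokines, with overlapping libraries (adjusted p = 0.191).

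The transmitters of interferon signals were on both sides. Irf9, a part of the type I interferon complex, read 46.0, 40 and 49.0 FPKM in Th0 and 24.1, 27.4 and 21.1 in the treated libraries (log2 difference −0.87). The receptor genes rose. Ifngr1 read 38.5, 44.1 and 38.6 FPKM without cytokine and 67.1, 82.8 and 57.4 with both cytokines (log2 difference 0.75), and Ifngr2 read 9.84, 12.1 and 9.97 and 23.9, 27.4 and 19.5 FPKM (log2 difference 1.07). All treated libraries were above all Th0 libraries for both receptor chains. Ifng itself, the ligand of that receptor, varied widely among the Th0 libraries at 7.32, 27.7 and 17.3 FPKM and read 3, 1.68 and 6.77 with TNF+TGF-β (adjusted p = 0.00825).

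MHC class I presentation fell in 18 of 20 tested members with none higher (median log2 difference −1.05). The share was 90%, where 14% of all tested genes fell, and 17 to 19 fell when single libraries were left out. The immunoproteasome subunit Psmb9 read 489, 398 and 451 FPKM in the Th0 libraries and 97.1, 91.3 and 101 in the treated ones (log2 difference −2.19 ± 0.15, adjusted p = 5.63e-07). Tap1, a chain of the peptide transporter and the head-to-head neighbour of Psmb9, read 274, 299.6 and 286 FPKM in Th0 and 74.4, 81.4 and 73.6 in the treated libraries (log2 difference −1.89). The gene models of these neighbours overlap, so some reads cannot be assigned between them. Nlrc5, the factor that switches on class I genes, read 34.0, 39.2 and 35.2 FPKM without cytokine and 6.89, 9.06 and 5.80 with both cytokines (log2 difference −2.19). The abundant chains themselves fell as well. B2m, the light chain (ENSMUSG00000060802.8, chromosome 2, 122147686 to 122153083), read 3449.7, 3390.0 and 3975 FPKM in the Th0 libraries and 2104, 2305 and 1953 in the treated ones (log2 difference −0.77 ± 0.16, adjusted p = 0.00336). H2-K1 and H2-D1 fell by 1.16 and 0.87 on the log2 scale, although class I heavy chain genes are near copies and their reads can be split between them. None of the 25 listed core and cap subunits of the constitutive proteasome rose (median log2 difference −0.39). The falls numbered 5 (20%, where 14% of all tested genes fell). That count was 1 without replicate 2 of TNF+TGF-β, 2 without Th0 replicate 1 or 2, and 3 without Th0 replicate 3 or replicate 1 of TNF+TGF-β. It was 16 with median-ratio scaling and 3 with equal FPKM sums, where the median log2 difference was −0.21. For 19 of these 25 subunits (76%, against 24.2% of all tested genes) every treated library was below every Th0 library. Psmb8, Psmb9 and Psmb10, the 3 immunoproteasome subunits, fell by 1.56, 2.19 and 0.78 on the log2 scale.

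Many promoters of these genes carry letters of the interferon-stimulated response element, and 4 are shown to let the sites be compared. Each line gives the 250 bases before the RefSeq start (GRCm38.p6), 5′ to 3′ on the strand of the gene, with matches to GAAANNGAA or its reverse complement TTCNNTTTC in capitals.
Gbp2 (chr3:142620413-142620662, plus strand): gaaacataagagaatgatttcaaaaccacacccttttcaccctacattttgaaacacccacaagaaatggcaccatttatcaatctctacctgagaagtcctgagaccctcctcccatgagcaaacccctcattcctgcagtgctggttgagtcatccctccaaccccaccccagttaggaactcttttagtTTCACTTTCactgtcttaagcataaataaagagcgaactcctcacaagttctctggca
Irgm1 (chr11:48871421-48871670, minus strand): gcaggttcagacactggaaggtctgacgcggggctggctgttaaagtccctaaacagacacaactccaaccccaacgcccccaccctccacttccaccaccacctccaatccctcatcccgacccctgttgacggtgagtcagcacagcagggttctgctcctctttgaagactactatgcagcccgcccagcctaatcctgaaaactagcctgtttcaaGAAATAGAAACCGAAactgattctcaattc
Isg15 (chr4:156200819-156201068, minus strand): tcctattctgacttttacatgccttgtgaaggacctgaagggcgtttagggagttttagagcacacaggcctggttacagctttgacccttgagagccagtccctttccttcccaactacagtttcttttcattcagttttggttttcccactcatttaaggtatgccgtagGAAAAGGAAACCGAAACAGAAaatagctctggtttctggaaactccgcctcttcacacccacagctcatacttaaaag
B2m (chr2:122147437-122147686, plus strand): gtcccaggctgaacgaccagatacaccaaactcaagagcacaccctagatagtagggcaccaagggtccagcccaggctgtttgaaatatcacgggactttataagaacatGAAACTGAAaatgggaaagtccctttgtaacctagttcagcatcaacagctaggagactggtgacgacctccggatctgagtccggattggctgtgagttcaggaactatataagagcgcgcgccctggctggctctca

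The Gbp2 match starts 58 bases before the RefSeq start. In Irgm1 and Isg15 the matches overlap one another, so that 2 and 3 copies of the pattern run together, and in B2m the single match lies farther out, 139 bases before the start. In windows of 300 bases (250 before to 50 after the start), the pattern was in 9 of 10 GTPase genes with a promoter in the table (90.0%). It was in 13 of 21 antiviral genes (61.9%) and in 5 of 17 class I genes (29.4%). The share was 8.57% over all 27025 genes with a promoter and 7.31% over the 8783 tested genes with one. Among the genes that fell it was 12.1%, and among those that rose 5.61%. A match shows the letters only, not that a factor binds. The whole Irgm1 window and the end of the Gbp2 window lie inside the gene models given above, which start farther upstream.

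**Figure D2:**
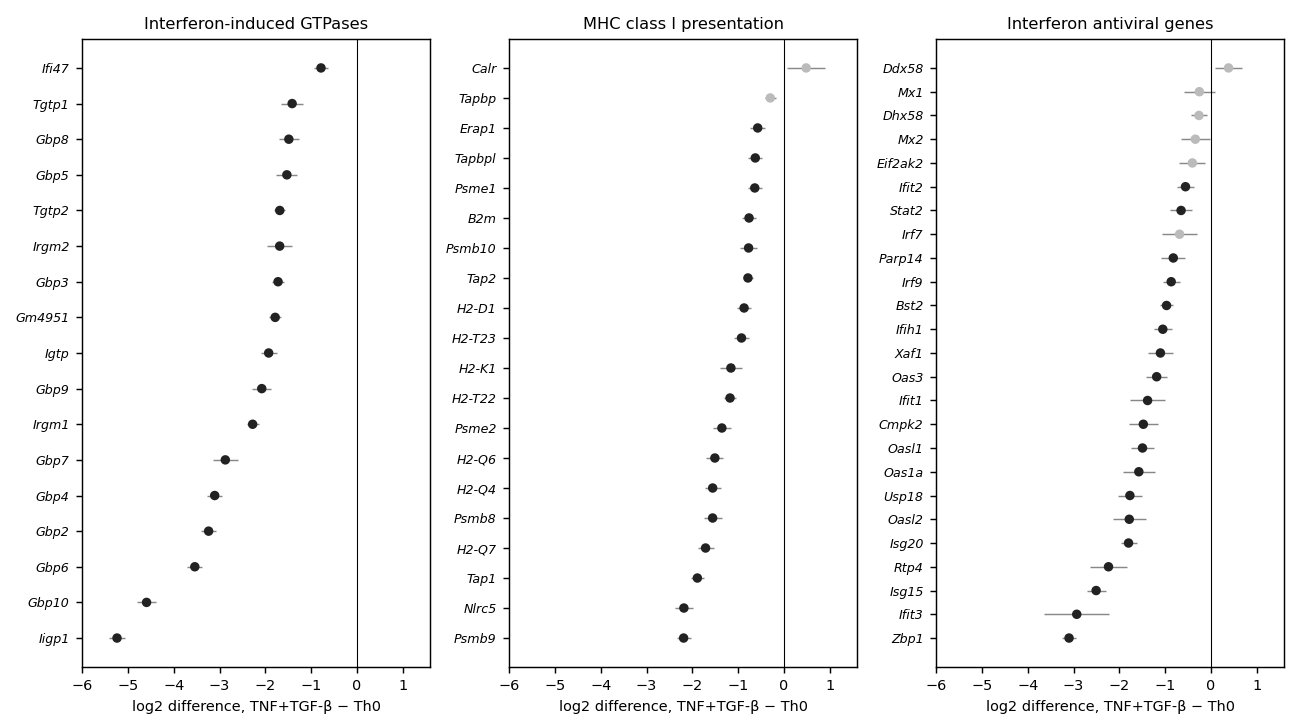
Log2 difference of TNF+TGF-β minus Th0 (points, bars are ± 1 SE) for tested interferon-induced GTPase, MHC class I and antiviral genes. Black points passed the test as lower and grey points passed in neither direction, 17 of 17, 18 of 20 and 19 of 25 of those drawn being black.

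MHC class II presentation, which in a spleen is known chiefly from B cells and dendritic cells, fell in 7 of 11 tested members (median log2 difference −1.31). That share was 63.6%, where 14% of all tested genes fell. H2-Ab1 read 1462, 1075 and 1704 FPKM in Th0 and 353, 503 and 324 in the treated libraries, and Cd74, the invariant chain, read 6223, 4445 and 7314 and 2127, 2749 and 1966 FPKM. Both were below every Th0 library in all treated libraries. The B cell receptor component Cd79a read 280.5, 258 and 350.0 FPKM without cytokine and 76.5, 123 and 78.0 with both cytokines, and among the B cell genes that fell, 10 of 12 in that list with Pax5 meeting the inclusion rule only through Th0, Ms4a1 (CD20) had the largest log2 difference, −2.83. The share of falls in the B cell list was 83.3%. The summed B cell markers given above fell alongside, and their part in the class II values was not tested.

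Genes of the TGF-β pathway itself were the list with the largest share of rises, 12 of 18 tested (66.7%, where 19.9% of all tested genes rose), and none fell (median log2 difference 1.48). Without Th0 replicate 2, the count of falls was 1. Both receptor chains rose. Tgfbr1 read 2.31, 2.02 and 2.19 FPKM in the Th0 libraries and 49.8, 48.5 and 41.8 in the treated ones (log2 difference 3.91), and Tgfbr2 read 14.9, 19.5 and 18.2 and 59.2, 86.5 and 47.9 FPKM (log2 difference 1.79). No Th0 library reached a treated one for either chain. The antagonists rose as well. Smad7, the inhibitory SMAD, read 1.80, 3.23 and 1.81 FPKM in Th0 and 22.6, 31.1 and 19.96 in the treated libraries (log2 difference 2.96 ± 0.40, adjusted p = 0.000134). Pmepa1, which sequesters receptor-activated SMADs, read 5.11, 3.76 and 7.22 and 67.6, 94.4 and 81.8 FPKM (log2 difference 3.72). Ski and Skil, the SMAD corepressors, rose by 2.497 and 1.96, and the ubiquitin ligases Smurf1 and Smurf2 by 1.74 and 1.39, on the log2 scale. Tgfb1, the ligand, read 80.0, 139 and 103 FPKM without cytokine and 301, 359 and 288 with both cytokines (log2 difference 1.58, adjusted p = 0.0114). The signal-carrying SMADs were not among the calls. Smad3 read 1.98, 3.44 and 2.73 FPKM in the Th0 libraries and 3.53, 4.96 and 4.12 in the treated ones (adjusted p = 0.201).

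Of the TNF receptors and their adaptors 7 of 19 tested rose and 2 fell (36.8% and 10.5%, against 19.9% and 14% of all). Tnfrsf1b, which encodes TNFR2, read 17.4, 22.6 and 18.4 FPKM in Th0 and 74.4, 108 and 70.8 in the treated libraries, and Tnfrsf1a, which encodes TNFR1, read 12.2, 8.69 and 13.2 and 31.4, 24.6 and 26.0 FPKM. Treated libraries were above Th0 for both, and TNFR2 had the larger log2 difference (2.04 against 1.21), a gap that was not tested. Birc2, which encodes the ubiquitin ligase cIAP1, rose from 17.4, 18.1 and 17.99 to 45.9, 50.6 and 37.3 FPKM (log2 difference 1.26, adjusted p = 1.21e-05). Its relative Birc3 read 47.3, 47.3 and 47.3 and 56.2, 52.6 and 51.0 FPKM (adjusted p = 0.204), and Traf1 read 131, 127 and 126 and 131, 150.0 and 125 (adjusted p = 0.716). Traf6, an adaptor shared with interleukin-1 receptors, rose by 1.27 on the log2 scale. Tnfaip8, an apoptosis inhibitor named for its induction by TNF, went the other way, from 173, 118 and 165 FPKM to 88.2, 73.4 and 84.5 (log2 difference −0.87, adjusted p = 0.00721). It was 1 of the 2 falls. The count of falls was 1 without any single one of Th0 replicates 1 or 3 or TNF+TGF-β replicates 1, 2 or 3, and 1 with equal FPKM sums. Tnip3, among the rises, met the inclusion rule only through the treated libraries and lost its call without any single library other than TNF+TGF-β replicate 1 (adjusted p = 0.0503 to 0.151).

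NF-kB genes rose in 5 of 14 tested members (35.7%, against 19.9% of all) and none fell, with 1 fall under median-ratio scaling. They were Nfkb1, Nfkb2, Relb, Bcl3 and Nfkbia. Nfkbia, the inhibitor IκBα (ENSMUSG00000021025.7, chromosome 12, 55489410 to 55492647), read 245, 278 and 233 FPKM without cytokine and 700.3, 837 and 669.9 with both cytokines. Every treated library was above every Th0 library (log2 difference 1.54 ± 0.14, adjusted p = 6.57e-06). Nfkb2, the precursor of p52, read 95.4, 95.7 and 92.3 FPKM in the Th0 libraries and 229, 255 and 215 in the treated ones (log2 difference 1.29), and its partner Relb rose by 0.81. Nfkb1, the precursor of p50, read 81.5, 132 and 84.9 FPKM in Th0 and 185, 189 and 175 in the treated libraries (log2 difference 0.91, adjusted p = 0.0158). Its call was lost without Th0 replicate 1 (log2 difference 0.78, adjusted p = 0.0659), Th0 replicate 3 (0.81, 0.0628) or TNF+TGF-β replicate 2 (0.88, 0.052). The subunits Rela and Rel, unlike Relb, were not called. Rela read 94.9, 115 and 107 FPKM without cytokine and 110.1, 134 and 106 with both cytokines (adjusted p = 0.54), and Rel 9.43, 9.51 and 8.65 and 10.5, 10.2 and 10.1 (adjusted p = 0.456).

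JAK, STAT, SOCS and PIM genes rose in 9 of 18 tested and fell in 4 (50% and 22.2%, against 19.9% and 14% of all). Among the genes that rose were those of the IL-2 route, in which JAK3 and JAK1 phosphorylate STAT5. Stat5a read 36.7, 40.4 and 32.7 FPKM in the Th0 libraries and 155, 181 and 140.0 in the treated ones (log2 difference 2.08 ± 0.23, adjusted p = 3.3e-05), and Stat5b read 24.2, 33.6 and 28.9 and 83.5, 95.7 and 74.5 (log2 difference 1.52). The gene models of Stat5a and Stat3 overlap, and the kit does not mark strand. Cish and Socs2, feedback inhibitors known as STAT5 targets, rose by 2.26 and 1.83. Cish read 18.3, 40.5 and 23.6 FPKM in Th0 and 117, 129.8 and 139 in the treated libraries, with every treated library above Th0 replicate 2, the highest of the Th0 libraries. Jak2 read 26.6, 36.6 and 29.1 FPKM without cytokine and 117, 149 and 87.1 with both cytokines (log2 difference 1.88). Of the falls, Stat2 belongs to the interferon route, although it lost its call when any single library was left out (adjusted p = 0.058 to 0.148). Socs1, an inhibitor induced by interferon, read 90.7, 83.3 and 105 FPKM in the Th0 libraries and 56.1, 51.5 and 63.5 in the treated ones (log2 difference −0.69, adjusted p = 0.00103). The count of falls was 2 without Th0 replicate 2, TNF+TGF-β replicate 1 or TNF+TGF-β replicate 3, and 2 with equal FPKM sums.

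Interleukin receptors rose in 12 of 22 tested members and fell in 3 (54.5% and 13.6%, against 19.9% and 14% of all tested genes). Il17re, among the rises, met the inclusion rule only through the treated libraries. Il1r2 (ENSMUSG00000026073.13, chromosome 1, 40074079 to 40125231), a decoy receptor that binds IL-1 without signalling, read 1.46, 1.64 and 2.45 FPKM in Th0 and 99.4, 147 and 60.6 in the treated libraries. Its treated libraries differed among themselves by more than those of most genes here and were all far above Th0 (log2 difference 5.11 ± 0.33, adjusted p = 3.6e-07). Il7r, the receptor of the survival cytokine IL-7, read 0.57, 1.47 and 0.86 FPKM without cytokine and 25.1, 35.9 and 18.7 with both cytokines (log2 difference 3.79). Il2rb, the signalling chain of the IL-2 and IL-15 receptors, read 70.1, 137 and 76.5 and 411, 412 and 396 FPKM (log2 difference 2.16), and both chains of the IL-18 receptor rose, Il18r1 from 7.76, 7.32 and 6.47 to 38.0, 36.7 and 32.0. The 3 that fell were Il12rb1, Il15ra and Il10ra. Il12rb1, shared by the IL-12 and IL-23 receptors, read 25.0, 29.2 and 29.7 FPKM in the Th0 libraries and 5.58, 3.59 and 6.88 in the treated ones (log2 difference −2.22 ± 0.29, adjusted p = 0.000109). Il15ra read 13.7, 12.9 and 14.5 and 2.97, 3.78 and 3.74 FPKM (log2 difference −1.71). Neither gene had a treated library above a Th0 library.

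Cytokine genes rose in 11 of 19 tested members and fell in 4 (57.9% and 21.1%, against 19.9% and 14% of all tested genes). Il9, Il17a and Il17f met the inclusion rule only through the treated libraries. Il9, a mast cell growth factor made by Th9 cells, was listed at 0 in all Th0 libraries and reached 10.1, 3.92 and 42.6 FPKM in the treated ones, with replicate 3 far above the others (adjusted p = 0.00204). Tnfsf11, which encodes RANKL, the factor that drives osteoclasts, read 19.96, 13.3 and 20 FPKM in Th0 and 140.0, 119 and 118 in the treated libraries (log2 difference 2.77 ± 0.22, adjusted p = 2.12e-06). Tnfsf14, which encodes LIGHT, rose from 4.41, 3.99 and 5.06 to 18.1, 18.3 and 18.6 FPKM, and Lta, lymphotoxin α, from 30.7, 56.0 and 40.9 to 128, 76.8 and 178. The falls were Ifng, Il2, Lif and Il12a, the last of which lost its call without any single library other than Th0 replicate 2 (adjusted p = 0.0602 to 0.124). Lif read 2.16, 6.67 and 2.67 FPKM without cytokine and 0.60, 0.47 and 1.39 with both cytokines (log2 difference −1.33, adjusted p = 0.00626), low values with separate groups. Tnf itself read 14.5, 24.1 and 15.1 and 15.2, 19.6 and 18.8 FPKM (adjusted p = 0.94). Il4, Il5, Il13, Il21 and Il22 did not meet the inclusion rule.

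Chemokine ligands went both ways, 5 of 12 tested rising and 4 falling (41.7% and 33.3%, against 19.9% and 14% of all tested genes). The rises were in ligands of CCR8, CCR6, CCR4 and CXCR2. Ccl1, the ligand of CCR8 (ENSMUSG00000020702.13, chromosome 11, 82176657 to 82305690), read 48.8, 12.6 and 99.6 FPKM in the Th0 libraries and 1334, 1117 and 1555 in the treated ones. The Th0 libraries differed among themselves and the lowest treated library was far above all of them (log2 difference 5.02 ± 0.59, adjusted p = 4.75e-05). Ccl22 and Ccl17 are both ligands of CCR4. Ccl22 read 4.87, 5.07 and 6.66 FPKM in Th0 and 30.8, 40.8 and 35.3 in the treated libraries (log2 difference 2.49), and Ccl17 read 0.2, 0.21 and 0 and 9.63, 10.4 and 10.3. Cxcl3, a neutrophil attractant, read 0.07, 0.13 and 0.07 and 3.18, 10.5 and 3.67 FPKM and, like Ccl17, met the inclusion rule only through the treated libraries. The falls were in the interferon-induced ligands of CXCR3, Cxcl9 and Cxcl10, and in Ccl4 and Ccl5. Cxcl10 read 11.3, 17.5 and 14.5 FPKM without cytokine and 0.44, 0.29 and 0.44 with both cytokines (log2 difference −3.46 ± 0.23, adjusted p = 5.27e-07), and its presence in the test, like that of Cxcl9, rests on Th0 alone. Ccl5 read 35.8, 34.7 and 37.8 and 13.6, 18.5 and 15.3 FPKM (log2 difference −1.15). Ccl4 read 391, 272 and 438 FPKM in the Th0 libraries and 148, 66.6 and 199 in the treated ones (log2 difference −1.52), and its adjusted p of 0.0168 became 0.053 without Th0 replicate 1, 0.0628 without the third Th0 library and 0.0779 without replicate 2 of the treated group.

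Promoters of Nfkbia and Ccl1 are shown because both genes rose and hold the letters of a κB site. The 250 bases before the start are given as above, with matches to GGGANNTTC or its reverse complement GAANNTCCC in capitals.
Nfkbia (chr12:55492648-55492897, minus strand): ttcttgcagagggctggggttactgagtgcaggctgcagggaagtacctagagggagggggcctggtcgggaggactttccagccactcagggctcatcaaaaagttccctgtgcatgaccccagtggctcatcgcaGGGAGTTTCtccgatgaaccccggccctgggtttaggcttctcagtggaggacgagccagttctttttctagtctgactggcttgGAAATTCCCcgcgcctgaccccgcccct
Ccl1 (chr11:82179813-82180062, minus strand): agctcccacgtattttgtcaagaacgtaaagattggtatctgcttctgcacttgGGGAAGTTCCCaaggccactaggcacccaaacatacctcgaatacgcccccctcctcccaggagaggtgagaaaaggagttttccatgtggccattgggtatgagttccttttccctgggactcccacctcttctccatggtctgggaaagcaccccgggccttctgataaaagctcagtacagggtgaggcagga

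Nfkbia holds 2 matches, starting 113 and 28 bases before the start. In Ccl1 a match on each strand overlaps the other, the first starting 196 bases before the start. The Ccl1 window lies inside the gene model given above. The pattern was in 5 of the 10 chemokine ligand genes with a promoter (Ccl1, Cxcl2, Cxcl3, Cxcl9 and Cxcl10) and in 3.87% of all genes with a promoter. Among the genes that rose the share was 3.65%, and among those that fell 3.36%. Cxcl9 and Cxcl10, which fell, and Ccl1, which rose, hold both this pattern and the interferon one.

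Chemokine and homing receptors rose in 7 of 16 tested members and fell in 3 (43.8% and 18.8%, against 19.9% and 14% of all). The rises included the receptors of several ligands above. Ccr8 read 17.5, 17.9 and 20.1 FPKM in Th0 and 548, 492 and 519 in the treated libraries, Ccr6, the receptor of CCL20, 36.1, 46.3 and 49.2 and 467, 416 and 446, and Ccr4 3.05, 4.07 and 3.23 and 52.8, 53.6 and 52.1. The log2 differences were 4.74, 3.32 and 3.60, and for each gene the lowest treated library was far above the highest Th0 library. Cx3cr1, the fractalkine receptor, read 0.04, 0 and 0.04 FPKM without cytokine and 17.6, 21.3 and 16.5 with both cytokines and met the inclusion rule only through the treated libraries. Gpr15, a colon homing receptor that rose with the same limit, stayed low at 1.95, 1.24 and 1.62 FPKM. Cxcr5, the follicle homing receptor that B cells also carry, fell from 31.9, 32.7 and 39.5 to 11.2, 16.8 and 9.45 FPKM (log2 difference −1.43). B cell marker sums were lower in the same libraries, and their part in the Cxcr5 value was not tested. Ccr7 read 427, 677 and 471 and 481, 722 and 408 FPKM (adjusted p = 0.958).

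Integrins rose in 7 of 12 tested members and fell in 1 (58.3% and 8.33%, against 19.9% and 14% of all tested genes). Itgae, the CD103 chain (ENSMUSG00000005947.11, chromosome 11, 73090583 to 73147446), read 0.40, 0.51 and 0.61 FPKM in the Th0 libraries and 325, 462 and 248 in the treated ones and had the largest rise of all named genes, a log2 difference of 7.80 ± 0.30. It met the inclusion rule only through the treated libraries. Its partner chain Itgb7, with which it binds E-cadherin, was already present at 82.4, 89.7 and 96.3 FPKM and rose to 131, 135 and 126 (log2 difference 0.54, adjusted p = 0.0094). Itga5, the fibronectin receptor chain, rose from 1.48, 2.10 and 1.49 to 10.2, 7.42 and 8.08 FPKM, and Itgb2, the common chain of leukocyte integrins, from 157, 159 and 169 to 332, 331 and 295. The single fall, Itgb3, passed through Th0 alone, and its call was lost without Th0 replicate 2, TNF+TGF-β replicate 1 or TNF+TGF-β replicate 3 (adjusted p = 0.0629, 0.0601 and 0.0529), where the count of falls was 0.

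Helper lineage factors rose in 12 of 24 tested members and fell in 3 (50% and 12.5%, against 19.9% and 14% of all). Factors of several lineages rose together. Rora, a nuclear receptor of T helper and innate lymphoid cells, read 2.76, 2.92 and 3 FPKM in Th0 and 56.7, 98.5 and 48.6 in the treated libraries (log2 difference 4.08 ± 0.28, adjusted p = 5.27e-07). Foxp3, the regulatory T cell factor, read 2.91, 4.94 and 6.62 and 99.0, 132 and 104 FPKM. Ikzf2, which encodes Helios, read 1.92, 1.5 and 1.67 FPKM without cytokine and 22.5, 24.2 and 16.9 with both cytokines (log2 difference 3.03 ± 0.23, adjusted p = 1.12e-06). Treated and Th0 libraries were far apart for all of these. Ahr, the aryl hydrocarbon receptor, read 1.01, 1.17 and 0.99 and 13.4, 19.8 and 10.8 FPKM (log2 difference 2.89), and Id2, an inhibitor of E proteins, 62.3, 69.5 and 67.0 and 210.3, 205 and 191 (log2 difference 1.59). Tcf7 and Foxo1, factors of resting and memory T cells, rose by 1.31 and 1.52, while Lef1, the close relative of Tcf7, fell from 106, 133 and 125 to 48.8, 78.7 and 51.2 FPKM (log2 difference −1.04). Id3 read 217, 113 and 199 FPKM in the Th0 libraries and 70.9, 63.2 and 68.5 in the treated ones (log2 difference −1.32, adjusted p = 0.00314), the opposite direction to Id2. Tbx21, which encodes T-bet, was the third fall at 46.3, 64.0 and 46.0 against 8.50, 5.67 and 10.4 FPKM. Irf4 and Batf, needed for early helper differentiation, were not called (adjusted p = 0.986 and 0.221).

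**Figure D3:**
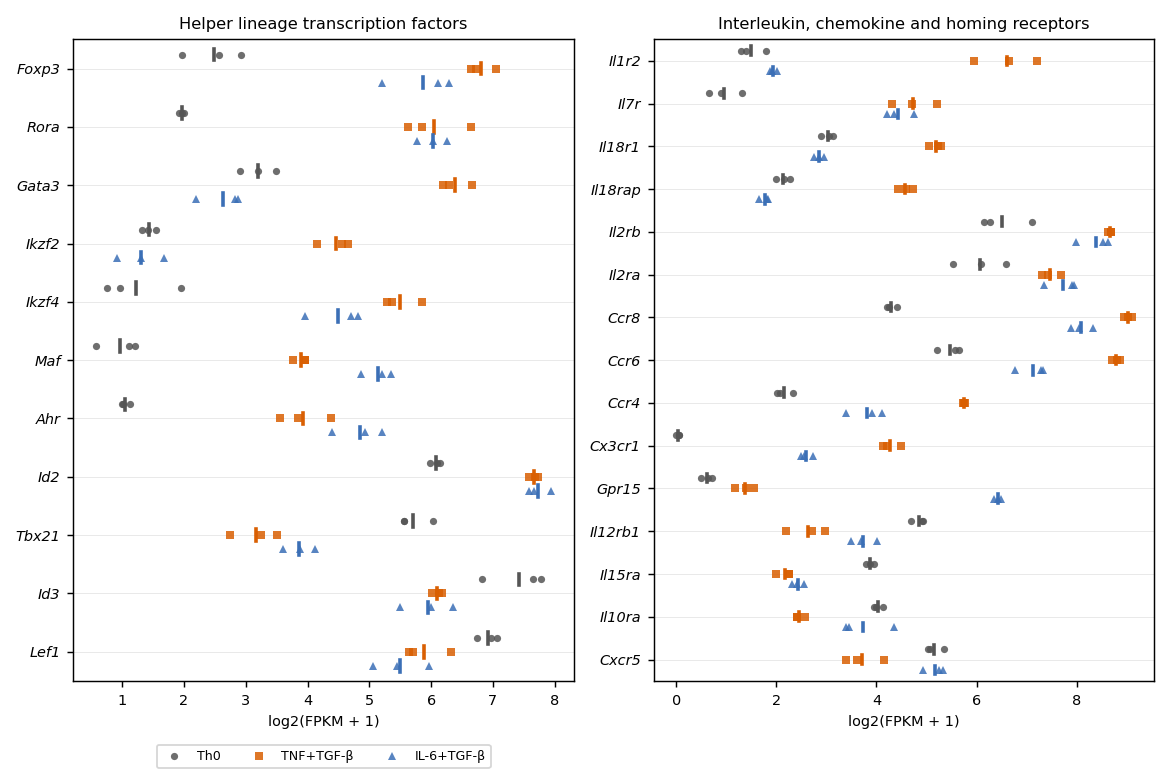
Values of log2(FPKM + 1) for 11 helper lineage factors and for interleukin, chemokine and homing receptors, with 1 point per library and a bar at the mean, for Th0, TNF+TGF-β and IL-6+TGF-β. Ikzf2 and Gata3 in the TNF+TGF-β libraries lie above both other conditions, and Gpr15 is highest in the IL-6+TGF-β libraries.

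Coinhibitory receptors fell in 5 of 12 tested members and rose in 1 (41.7% and 8.33%, against 14% and 19.9% of all tested genes). Cd200, whose receptor restrains myeloid cells, read 557, 479 and 549 FPKM in Th0 and 144, 121 and 133 in the treated libraries (log2 difference −1.99 ± 0.13, adjusted p = 4.44e-07). Btla read 84.98, 63.8 and 80.9 and 27.7, 22.7 and 21.9 FPKM (log2 difference −1.62), and Tigit 33.1, 42.6 and 37.8 and 6.67, 9.35 and 7.43 (log2 difference −2.14). The rise was in Cd96, which binds the same ligand as Tigit, from 19.1, 27.8 and 23.8 to 167, 195 and 136 FPKM (log2 difference 2.77 ± 0.23, adjusted p = 2.74e-06). The groups were separate for these 4 genes. Ctla4 read 40.1, 59.7 and 34.7 FPKM without cytokine and 44.0, 52.2 and 35.7 with both cytokines (adjusted p = 0.986), and Pdcd1, which encodes PD-1, 192, 93.5 and 181 and 169.5, 133 and 157 (adjusted p = 0.933), both overlapping.

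Costimulatory receptors of the TNF family rose in 5 of 13 tested members (38.5%, against 19.9% of all tested genes) and none fell. The death receptor Fas read 29.8, 31.4 and 23.7 FPKM in the Th0 libraries and 98.4, 88.9 and 80.9 in the treated ones (log2 difference 1.63 ± 0.15, adjusted p = 5.79e-06), a clear separation. Tnfrsf25, which encodes DR3, read 3.19, 1.80 and 1.52 and 60.8, 48.2 and 54.2 FPKM, and Tnfrsf11a, which encodes RANK, 0.12, 0.05 and 0.41 and 3.27, 3.93 and 3.38, so that receptor and ligand of the RANK pair were both higher. RANK met the inclusion rule only through the treated libraries. Tnfrsf4 (OX40) read 454, 599 and 505 FPKM in Th0 and 545, 568 and 514 in the treated libraries, with overlapping groups (adjusted p = 0.807). Tnfrsf18 (GITR) read 277, 321 and 291 and 370.2, 474 and 373 FPKM and missed the threshold (adjusted p = 0.0728).

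In the adenosine pathway 2 of 8 tested genes rose and 2 fell (25% each way), shares near those of all tested genes (19.9% and 14%). Nt5e, which encodes CD73, the surface enzyme that makes adenosine, read 37.6, 27.8 and 40.1 FPKM without cytokine and 195, 147 and 165 with both cytokines (log2 difference 2.24 ± 0.21, adjusted p = 6.64e-06). Ada, the enzyme that removes adenosine, read 9.78, 9.36 and 11.7 and 3.87, 5.17 and 5.68 FPKM (log2 difference −0.94, adjusted p = 0.00144), and the receptor Adora2b rose from 1.09, 0.71 and 1.42 to 6.41, 4.44 and 6.26. The treated libraries were all above Th0 for Nt5e and Adora2b and all below it for Ada. The count of falls was 1 without Th0 replicate 3 or TNF+TGF-β replicate 2, and 1 with equal FPKM sums.

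Cytotoxic granule genes fell in 4 of 8 tested members and rose in 2 (50% and 25%, against 14% and 19.9% of all tested genes). Gzmb, granzyme B, read 129, 618 and 205 FPKM in the Th0 libraries and 0.79, 1.84 and 1.86 in the treated ones, and Prf1, perforin, read 13.2, 22.2 and 13.5 and 3.84, 4.67 and 4.97 FPKM (log2 difference −1.62, adjusted p = 0.00247). Srgn, the proteoglycan that packs granules, read 514, 494 and 558 and 221, 193 and 246 FPKM (log2 difference −1.25). In Th0 both killing genes were highest in replicate 2. Gzmc, granzyme C, went the other way, from 0.38, 2.31 and 0.48 to 15.9, 18.1 and 15.9 FPKM (log2 difference 3.22 ± 0.29, adjusted p = 4.99e-06), as did Ctsw, cathepsin W, from 59.8, 58.6 and 63.4 to 466, 486 and 452 (log2 difference 2.93). The CD8 chains were higher in the same libraries, and their part in these values was not tested.

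Ly6 surface proteins, small lipid-anchored proteins of which several are interferon-induced, fell in 5 of 8 tested members and rose in 1 (62.5% and 12.5%). Of all tested genes, 14% fell and 19.9% rose. Ly6a, which encodes Sca-1, read 1348, 1243 and 1521 FPKM in Th0 and 20.5, 20.5 and 22.1 in the treated libraries, and Ly6c2 315, 273 and 318 and 5.45, 8.04 and 3.85. The log2 differences were −5.96 ± 0.26 and −5.53 ± 0.23 (SE). Ly6d, a B lineage marker, read 761, 487 and 741 and 82.1, 115 and 75.1 FPKM beside the lower B cell sums, whose part was not tested. Ly6g5b rose from 0.51, 1.03 and 0.2 to 49.1, 56.9 and 54.6 FPKM (log2 difference 5.14). Ly6c1, another of the falls, met the inclusion rule only through Th0. Members of this family are close copies, so reads may be split among them.

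Glycolysis genes fell in 15 of 20 tested members with none higher (median log2 difference −0.75). The share was 75%, where 14% of all tested genes fell, and 12 to 14 fell when single libraries were left out. Hk2, the hexokinase that commits glucose, read 18.02, 23 and 18.8 FPKM without cytokine and 4.66, 3.92 and 8.18 with both cytokines (log2 difference −1.71 ± 0.25, adjusted p = 0.000246). Tpi1 read 1113, 1061 and 1123 and 441, 356 and 452 FPKM (log2 difference −1.41), Pgk1 693, 691 and 733 and 341, 269.7 and 353 (−1.14), and Pkm 1452, 1617 and 1521 and 703, 592 and 729 (−1.18). Each of these enzymes was below Th0 in all 3 treated libraries, with replicate 2 the lowest of them. Slc2a3, a glucose transporter, was not called (adjusted p = 0.531). Hypoxia response genes divided, with 5 of 15 lower and 2 higher (33.3% and 13.3%, against 14% and 19.9% of all tested genes). Hif1a, the oxygen-sensitive factor, read 73.3, 95.5 and 75.5 FPKM in the Th0 libraries and 41.1, 51.4 and 32.3 in the treated ones (log2 difference −0.97), and its target Bnip3, a mitophagy receptor, 48.1, 64.2 and 49.0 and 12.2, 14.03 and 13.2 (log2 difference −1.95 ± 0.16, adjusted p = 2.06e-06). The count of rises was 1 without Th0 replicate 1, 2 or 3 or TNF+TGF-β replicate 1 or 3, 4 with equal FPKM sums and 1 with median-ratio scaling. The hypoxia element ACGTG (either strand) was in 10 of 19 glycolysis promoters (52.6%) and 10 of 13 hypoxia response promoters (76.9%), against 19.7% of all and 26.8% of those of tested genes.

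Ribosome biogenesis fell in 18 of 25 tested members with none higher (median log2 difference −0.72). The share was 72%, where 14% of all tested genes fell, and 12 to 18 fell when single libraries were left out. Ncl, nucleolin, read 424, 553 and 451 FPKM in Th0 and 226, 225 and 271 in the treated libraries (log2 difference −0.98 ± 0.14, adjusted p = 0.000231). Npm1, nucleophosmin, read 952, 1208 and 1023 and 626, 556 and 732 FPKM (log2 difference −0.73), a call lost without TNF+TGF-β replicate 2 (−0.64, adjusted p = 0.0538). Srm, spermidine synthase, read 357, 400.1 and 387 and 171, 122 and 194 FPKM (log2 difference −1.25). Every treated library was below every Th0 library for these genes. Myc, the factor known to drive them, read 145, 239.6 and 175 FPKM without cytokine and 169, 193 and 174 with both cytokines, with overlapping groups (log2 difference −0.03, adjusted p = 0.936).

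Of 28 tested nuclear genes of the respiratory chain 5 fell and 1 rose (17.9% and 3.57%, where 14% and 19.9% of all did). The median log2 difference was −0.31. In 22 of the 28 (78.6%, against 24.2% of all tested genes) every treated library was below every Th0 library. The falls numbered 1 without Th0 replicate 1, Th0 replicate 3 or TNF+TGF-β replicate 1, 2 without Th0 replicate 2, and 0 when replicate 2 of the treated group was left out. They numbered 14 with median-ratio scaling and 1 with equal FPKM sums. The rise was lost without Th0 replicate 1, 2 or 3 or TNF+TGF-β replicate 1 or 2.

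In DNA replication 6 of 28 tested genes fell (21.4%, where 14% of all fell) and none rose. In 17 of the 28 (60.7%, against 24.2% of all tested genes) every treated library was below every Th0 library. The falls numbered 2 without Th0 replicate 1 or TNF+TGF-β replicate 2, 3 without Th0 replicate 3 or TNF+TGF-β replicate 1, and 3 with equal FPKM sums. Cdt1, which loads the replicative helicase, read 61.8, 73.8 and 60.5 FPKM in the Th0 libraries and 33.9, 33.8 and 39.5 in the treated ones (log2 difference −0.85 ± 0.14, adjusted p = 0.000503). Of 24 mitosis genes 1 fell (4.17%) and none rose. That fall was lost without Th0 replicate 1 or 3 or TNF+TGF-β replicate 1 or 2, where the count was 0. With equal FPKM sums 3 mitosis genes rose and none fell. Top2a read 171, 194 and 187 FPKM in Th0 and 201, 177 and 203 in the treated libraries (adjusted p = 0.79), overlapping. Among cyclin D, CDK inhibitor and p53 target genes, Ccnd1 rose from 0.62, 0.06 and 0.17 to 3.82, 3.11 and 3.94 FPKM, meeting the inclusion rule only through the treated libraries. Cdk6 read 33.2, 32.4 and 23.5 and 16.0, 12.4 and 20.3 FPKM (log2 difference −0.84). That list had 5 falls of 14 tested (35.7%, where 14% of all fell), 3 without Th0 replicate 1 or 3 or TNF+TGF-β replicate 1, and 2 when replicate 2 of the treated group was left out. Its single rise became 2 without TNF+TGF-β replicate 3 and 6 with equal FPKM sums.

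The BCL2 family, which sets the threshold for mitochondrial cell death, had 4 of 15 tested genes higher and 4 lower (26.7% each way). Of all tested genes, 19.9% were higher and 14% lower. Bcl2l1, which encodes the survival protein BCL-xL, read 23.3, 41.8 and 30.1 FPKM without cytokine and 85.3, 87.2 and 84.0 with both cytokines (log2 difference 1.44 ± 0.23, adjusted p = 0.000515). Bcl2a1d, of the A1 survival proteins, rose from 136, 137 and 129 to 303, 303 and 279 FPKM, though its near copies Bcl2a1a and Bcl2a1b were not called and can share its reads. The death effector Bax read 368, 375 and 336 FPKM in the Th0 libraries and 177, 159 and 206 in the treated ones (log2 difference −0.998 ± 0.13, adjusted p = 8.75e-05), and Bid, which links death receptors to Bax, 28.6, 32.1 and 25.7 and 12.4, 14.2 and 12.3 (log2 difference −1.09). Groups were separate for these 4 genes. Pmaip1, which encodes the death sensitizer NOXA, was among the rises (9.23, 9.79 and 10.3 against 23.2, 37.7 and 21.7 FPKM). Bmf, another rise, met the inclusion rule only through the treated libraries. Without Th0 replicate 1 the falls numbered 2, as they did with equal FPKM sums.

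**Figure D4:**
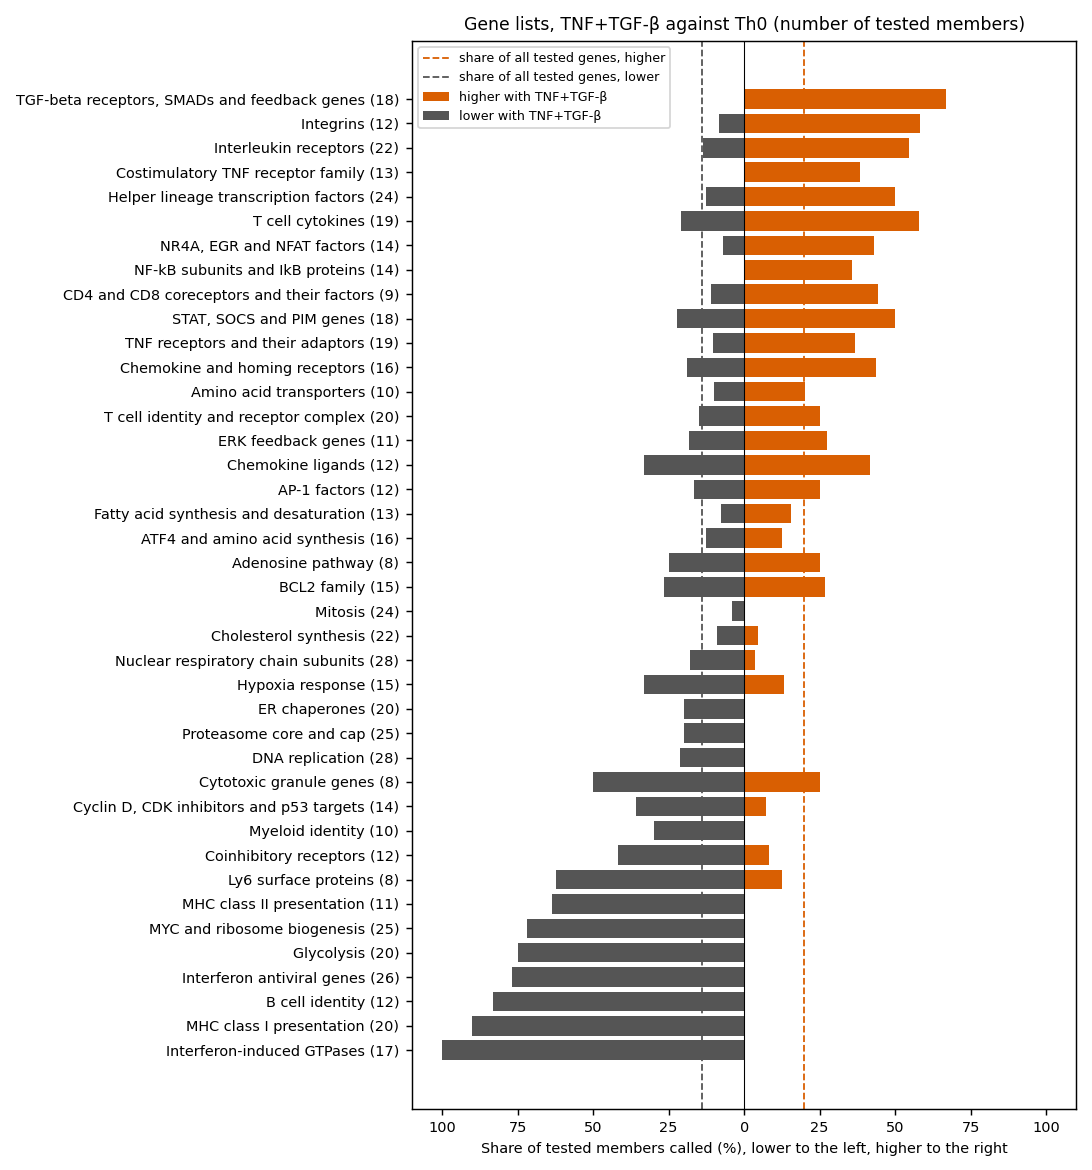
Share of the tested members of each gene list (number in brackets, lists with at least 8) that passed the test as higher (right) or lower (left) with TNF+TGF-β, with dashed lines at the shares of all tested genes, 19.9% and 14%. The TGF-β list has the longest bar to the right (66.7%), and the interferon-induced GTPases (100%) and MHC class I (90.0%) the longest to the left.

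Among the largest rises, Fbxo2, a ubiquitin ligase subunit that recognises sugar chains, read 0.30, 0.29 and 0.46 FPKM in Th0 and 81.2, 88.9 and 75.1 in the treated libraries (log2 difference 5.94 ± 0.16, adjusted p = 6.36e-10). Nupr1, a stress-induced nuclear protein, read 1.17, 0.07 and 0.38 and 185, 167 and 229.9 FPKM (log2 difference 7.04), and Rnf208, a RING domain ubiquitin ligase, 0.26, 0.70 and 0.81 and 98.4, 105 and 99.1 (6.02). All 3 were under 2 FPKM in every Th0 library. Fbxo2 and Rnf208 met the inclusion rule only through the treated libraries, so they had to differ. Car2, carbonic anhydrase 2, read 2.98, 1.80 and 1.89 FPKM without cytokine and 107, 87.5 and 111 with both cytokines (log2 difference 5.005), and Aqp3, a water and glycerol channel, 2.09, 2.94 and 2.88 and 118, 100.1 and 123 (4.98). Stab1, a scavenger receptor known from macrophages, read 1.47, 0.11 and 0.15 and 56.3, 44.1 and 40.9 FPKM (5.02), while the summed myeloid markers given above overlapped between the groups. Its gene model overlaps that of Nt5dc2. Krt83, a hair keratin, read 0, 0.06 and 0.03 and 42.0, 24.0 and 49.6 FPKM, and Apol9b 1.18, 0.19 and 0.77 and 67.3, 73.2 and 65.5, with reads that its near copy Apol9a may share. The short RNAs Snord13 and Mir6240 were listed at 0 in all Th0 libraries and reached 34.8, 87.6 and 53.9 and 21.9, 55.3 and 33.7 FPKM in the treated ones. For genes shorter than a fragment these values are unreliable. Like Krt83, both short RNAs met the inclusion rule only through the treated libraries.

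Among the largest falls, Serpina3f, a protease inhibitor, read 87.7, 109.8 and 104 FPKM in the Th0 libraries and 0.57, 0.77 and 0.55 in the treated ones (log2 difference −5.96 ± 0.16, adjusted p = 6.36e-10). Serpina3g, of the same family, read 227, 271 and 268 and 21.9, 23.1 and 22.7 FPKM (log2 difference −3.44). Kbtbd11 read 65.8, 54.5 and 72.6 FPKM in Th0 and 2.74, 2.08 and 2.53 in the treated libraries (−4.24), and Gimap7, a GTPase of lymphocyte survival, 89.3, 80.2 and 87.6 and 5.66, 5.77 and 6.97 (−3.61). Plac8 read 420.1, 213 and 425 and 27.3, 26.7 and 29.6 FPKM (−3.55), and Pkib, an inhibitor of protein kinase A, 29.4, 18.4 and 27.0 and 0.80, 1.71 and 2.11 (−3.36). Stfa3, a cysteine protease inhibitor, read 14.5, 6.37 and 9.47 FPKM in Th0 and was listed at 0 in all treated libraries. None of these genes had a treated library near a Th0 library. Serpina3f and Stfa3 met the inclusion rule only through Th0, so they had to differ.

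**Figure D5:**
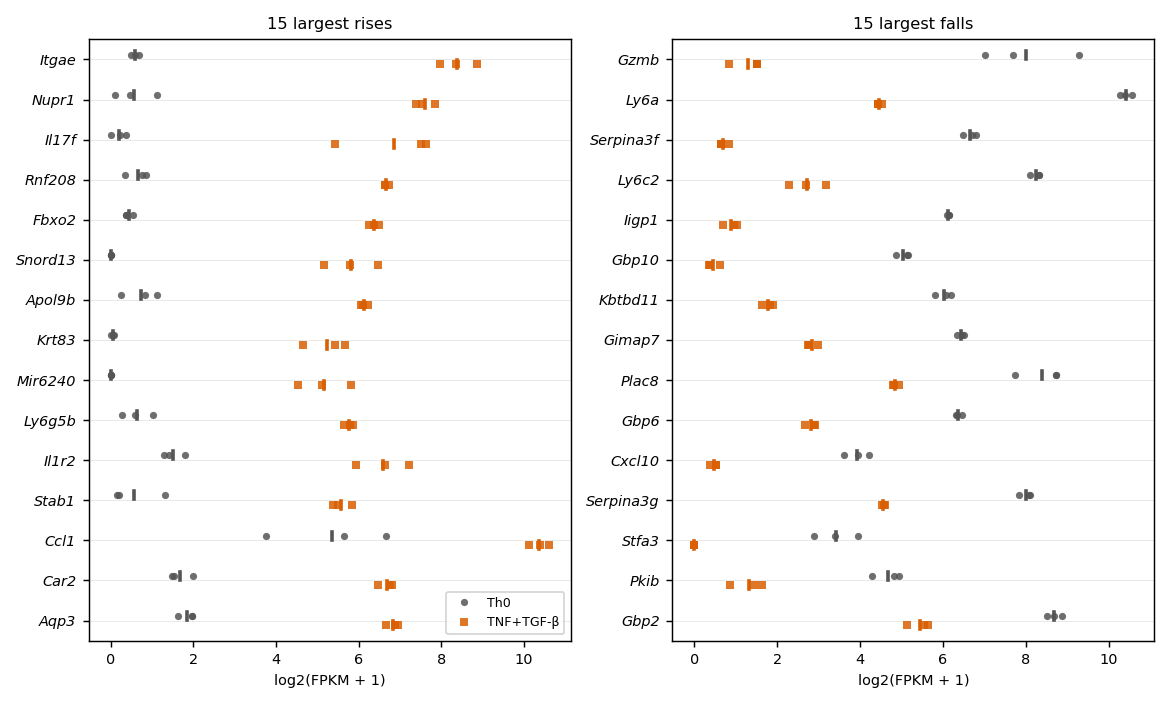
Values of log2(FPKM + 1) in the 3 Th0 libraries (circles) and the 3 TNF+TGF-β libraries (squares), with a bar at the mean, for the 15 largest rises and 15 largest falls. Most of the genes that rose lie near 0 in Th0, and Gzmb spreads most among the Th0 libraries of the genes that fell.

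To see which of these changes set TNF apart from the other cytokine given with TGF-β, the same genes were compared with the WT IL-6+TGF-β libraries in the same fit. Of the tested genes 957 were higher in the TNF+TGF-β libraries (7.88%) and 610 lower (5.02%). The inclusion rule did not use the IL-6 libraries, so genes read only there were left out. The balance of higher and lower genes may rest in part on that rule. Both contrasts use the same TNF+TGF-β libraries, so the values are only set side by side. Scin, an actin-severing protein, read 0.69, 0.96 and 0.87 FPKM in Th0, 41.7, 65.5 and 36.5 in the TNF+TGF-β group and 0.23, 0.1 and 0.26 in the IL-6 group (log2 difference from the IL-6 group 5.31, adjusted p = 1.35e-08). Lad1, an anchoring filament protein, read 11.1, 16.3 and 13.7, 318, 409 and 288 and 4.24, 6.83 and 6.11 FPKM in the same order (5.66, adjusted p = 8.93e-09). For both genes the TNF+TGF-β libraries were the high ones, and Scin met the inclusion rule only through them. Il1r2 read 3.04, 2.68 and 2.79 FPKM with IL-6+TGF-β (log2 difference 4.66), Ccl22 0, 0.15 and 0.11 (5.07) and Tnfsf11 9.56, 7.45 and 8.09 (3.76), all below their TNF+TGF-β values given above. Ikzf2 read 1.48, 2.18 and 0.89 FPKM in the IL-6 group (3.16, adjusted p = 1.64e-06), values that overlap those of Th0. Bcl2l1 read 20.1, 30.3 and 26.8 FPKM (1.71, adjusted p = 0.000274), which also overlap its Th0 values.

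Other genes were lower with TNF than with IL-6. Gpr15 read 84.6, 89.0 and 80.8 FPKM with IL-6+TGF-β (log2 difference −5.05, adjusted p = 7.42e-09), where the TNF+TGF-β libraries read 1.95, 1.24 and 1.62. Emp1, a membrane protein, rose against Th0 from 0.23, 0.87 and 0.44 to 12.3, 8.18 and 11.7 FPKM but read 52.8, 72.2 and 69.3 with IL-6+TGF-β (−2.49). Emp1 met the inclusion rule only through the TNF+TGF-β libraries. Igfbp4, which binds insulin-like growth factors, read 66.6, 44.3 and 80.5, 166, 152 and 178 and 781, 875 and 948 FPKM in Th0, TNF+TGF-β and IL-6+TGF-β (−2.38). Ly6a read 441, 428 and 394 FPKM in the IL-6 group, between the other conditions (−4.26, adjusted p = 4.49e-07). Prf1 read 19.99, 30.4 and 29.6 FPKM with IL-6+TGF-β (−2.31), overlapping the upper part of its Th0 values. Of the 17 GTPases 1 was higher (5.88%) and 4 lower (23.5%) with TNF than with IL-6, where 7.88% and 5.02% of all tested genes were, Gbp2 among the latter with 199, 244 and 178 FPKM in the IL-6 group (−2.24, adjusted p = 2.75e-06). In the antiviral list 2 of 26 genes were higher (7.69%) and 1 lower (3.85%) with TNF, and in the MHC class I list 3 of 20 were higher (15%) and none lower. With IL-6, Tap1 read 53.3, 75.5 and 77.4 FPKM and Iigp1 1.23, 2.44 and 1.62 (adjusted p = 0.504 and 0.0737).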

How the data were processed

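RNA was sequenced in bulk. Per the labels' protocols, a SMARTer kit for very small inputs made the cDNA and a Nextera XT kit, which does not mark the strand, the libraries. Per the submitters' processing notes, the reads went through Trimmomatic, STAR 2.5.4 and RSEM 1.3.1 on mm10. The deposited table holds 1 gene-level value per library for 47643 genes, read as FPKM made by the authors because library sums differ and the headers do not name the RSEM quantity. Of the identifiers, 47224 matched GENCODE M21 (GRCm38), the source of coordinates. The gene models of 41 named genes overlap another model that reached 1 FPKM, so some of their reads may be shared. Among them are Itgae, Foxp3, Cx3cr1, Rnf208, Ctsw, Gpr15 and Ccnd1. Promoters are from RefSeq (GRCm38.p6).

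On the scale log2(FPKM + 1), group means were compared with limma (version 3.58.1, R 4.3.3) in a model of all 12 libraries without covariates. Its variance prior depends on mean level, and p-values were adjusted (Benjamini-Hochberg) over the 12146 genes. The procedure was tested on simulated data. The column numbered 4 of the Tnfr2-/- group is tied to its group only. Approximate depth came from step sizes among low FPKM of single-transcript genes, of which 86.1% to 90.3% lay within 0.2 of whole multiples.

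Members, lists and rules were chosen with earlier results of these data known. Named genes are 14 fixed ones, the 15 largest changes in each direction, the 8 largest differences from IL-6+TGF-β each way, and up to 3 called members of each of 43 lists. The largest changes had to be at least 2-fold, with a mean of 10 FPKM or more in the higher group and separate groups, and exclude predicted genes and receptor segments. A few genes the rule names are not reported here, and 102 other genes were named after their values were seen. Alternatives changed the scaling, pseudocount, filter, libraries fitted, variance prior and replicate block, and left out each library in turn.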

Additional observations from a re-analysis of the deposited data

How the results depend on the processing

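The reported fit called 2413 genes higher and 1704 lower. Leaving out each of the 6 libraries in turn gave 1722 to 2240 higher and 1128 to 1520 lower, the lowest count of falls, 1128, being without replicate 2 of TNF+TGF-β. With libraries at equal FPKM sums the counts were 3251 and 1242, and with median-ratio scaling 2130 and 2170, while the median log2 difference of all genes went from 0.07 to 0.232 and −0.005. All other settings kept both counts within 1.5 times of the main ones. No named gene with a call changed direction in these settings, while 12 named genes without a call (Bcl2a1b, Ccr7, Cd3e, Ctla4, Irf4, Myc, Pdcd1, S100a8, Tnf, Tnfrsf4, Top2a and Traf1, adjusted p from 0.498 up) had the other sign in at least 1. Calls of named genes that were lost on leaving out a library are given beside the genes. With 3 libraries a group, differences near the threshold depend on single libraries, and 3 fragments on a transcript of 1 kilobase correspond to 0.132 to 0.155 FPKM, a limit that covers counting error only.

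Whether the replicate numbers shared by the groups pair the libraries was not settled, and the main fit did not use them. Deviations of same-numbered libraries correlated at 0.062, 0.132 and 0.061, and those of libraries with different numbers at −0.086 to 0.04. Each library correlated best with its own number, a hint from the data rather than the design. A fit of the 6 libraries with the replicate number as a block called 3212 genes higher and 2458 lower, and without the block 3071 and 2308. Fos, Stat3 and Tnfrsf18 passed the threshold in both of these fits, and Batf, Cd4 and Smad3 in the one with the block. Of 86 list counts, 21 moved by over 1.5 times with equal FPKM sums and 9 with median-ratio scaling.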

Other observations

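Further groups of factors and enzymes were followed in the same libraries. Of the AP-1 factors 3 of 12 tested rose and 2 fell (25% and 16.7%), near the shares of all tested genes (19.9% and 14%). Jun read 19.1, 15.7 and 21.7 FPKM without cytokine and 73.0, 95.5 and 76.0 with both cytokines (log2 difference 2.06 ± 0.23 (SE), adjusted p = 2.97e-05), and Junb 168, 186 and 146 and 363, 345 and 381 (log2 difference 1.12). All treated libraries were above Th0 for both. Fos read 5.56, 8.44 and 6.04 and 3.24, 4.75 and 3.34 FPKM (adjusted p = 0.0819). Atf3, a stress factor, fell from 2.81, 3.54 and 2.81 to 0.58, 0.55 and 0.36 FPKM and met the inclusion rule only through Th0. The count of falls was 1 without Th0 replicate 1 or 3 or TNF+TGF-β replicate 1, 2 or 3, and with equal FPKM sums.

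Of the NR4A, EGR and NFAT factors, which follow calcium and antigen receptor signals, 6 of 14 rose and 1 fell. Those shares were 42.9% and 7.14%, against 19.9% and 14% of all tested genes. The fall was lost without Th0 replicate 2 or 3 or TNF+TGF-β replicate 1 or 3, where the count was 0, as it was with equal FPKM sums, and was 2 with median-ratio scaling. Egr2, a restraint on T cell activation, read 39.7, 22.8 and 39.7 FPKM in the Th0 libraries and 80.9, 117 and 72.2 in the treated ones (log2 difference 1.39 ± 0.23, adjusted p = 0.000781). Nfatc2 read 5.27, 8.01 and 5.14 and 18.3, 19.6 and 18.7 FPKM (log2 difference 1.497). The phosphatases that switch off ERK moved in opposite directions. Dusp4 read 12.3, 17.8 and 12.2 FPKM in Th0 and 86.2, 84.5 and 78.3 in the treated libraries (log2 difference 2.496, adjusted p = 7.28e-05) and Dusp5 12.9, 23.4 and 15.3 and 53.6, 49.4 and 65.3 (log2 difference 1.68), whereas Dusp6 read 121, 35.0 and 114 and 29.5, 30.1 and 27.4 (log2 difference −1.41, adjusted p = 0.00928). For Dusp6, Th0 replicate 2 lay near the treated libraries and the other Th0 libraries far above them.

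Lipid and amino acid lists were mostly without calls, as were the tested genes in general, of which 33.9% were called. In cholesterol synthesis 19 of 22 tested genes, and in fatty acid synthesis 10 of 13, were called in neither direction. The fatty acid fall, Scd1, which makes monounsaturated fatty acids, read 8.26, 13.3 and 11.2 FPKM without cytokine and 3.48, 5.29 and 2.92 with both cytokines (log2 difference −1.29, adjusted p = 0.00314). Atf4, the factor of amino acid stress, fell from 109, 105 and 97.3 to 61.4, 63.3 and 67.6 FPKM (log2 difference −0.69, adjusted p = 0.00188), and Slc1a4, a carrier of neutral amino acids, rose from 1.35, 2.11 and 1.49 to 6.17, 5.41 and 5.41 (log2 difference 1.34). Neither had overlapping groups. In the ER chaperone list 16 of 20 were called in neither direction.

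Among genes of the T cell receptor and its costimulation 5 of 20 tested rose and 3 fell (25% and 15%). These shares are near those of all tested genes (19.9% and 14%). The falls numbered 1 without Th0 replicate 1 or 3 or TNF+TGF-β replicate 1, and 2 with equal FPKM sums. Cd28, the main costimulatory receptor, fell from 98.6, 90.3 and 100.3 to 46.1, 40.5 and 40 FPKM (log2 difference −1.17 ± 0.12, adjusted p = 1.39e-05). Cd3e read 323, 628 and 569 FPKM in the Th0 libraries and 456, 523 and 491 in the treated ones (adjusted p = 0.989). Thy1, a T cell surface protein, rose from 20.97, 47.6 and 22.3 to 107, 111 and 126 FPKM (log2 difference 1.98), and Trat1, an adaptor that stabilises the receptor complex, from 2.92, 3.88 and 1.92 to 15.2, 22.04 and 14.8 (log2 difference 2.24). In IL-6+TGF-β libraries Trat1 read 1.48, 0.74 and 1.78 FPKM.

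S100a8, a granulocyte protein, was highest in replicate 3 of each WT condition. It read 3.17, 1.16 and 17.7 FPKM in Th0, 1.08, 1.65 and 24.3 in the TNF+TGF-β group and 7.13, 3.02 and 51.7 in the IL-6+TGF-β group, and it was not called between the groups (adjusted p = 0.96).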
